A study of Homo sapiens with 24 samples.

Results

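NFE2L2, the gene of the transcription factor NRF2, its inhibitor KEAP1, the related factor gene NFE2L3 and 7 antioxidant genes known as NRF2 targets (HMOX1, NQO1, GCLC, GCLM, TXNRD1, SRXN1 and OSGIN1) were followed through 24 RNA-seq libraries of HK-2 cells. The 10 genes were chosen by name and matched to Ensembl IDs. All 10 were found among the 65180 gene IDs of the table, and all 10 passed the filter on low counts in both experiments, as 10 of 21316 and 10 of 21639 tested genes. HK-2 is an immortalised epithelial cell line of the human proximal tubule, the part of the nephron that reabsorbs most of the filtrate.

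Cells deprived of serum overnight were incubated for 24 h in 6 ways. TGF-β1, a profibrotic cytokine, was given at 2 ng/mL. BAY 60-2770 (called BAY here) is an activator of soluble guanylate cyclase (sGC), the enzyme that makes cyclic GMP. The groups were TGF-β1 with BAY in normoxia (5 libraries), TGF-β1 alone in normoxia (5), BAY in hypoxia (3), solvent in hypoxia (3), BAY in normoxia (3) and solvent in normoxia (5). Hypoxia was 0.3% oxygen. Controls received the solvents of both agents, 0.0001% DMSO and 4 µM HCl with 0.0001% BSA. The labels give the BAY concentration as 1 mM. That dose is far above those usual for such compounds in culture and may be a misprint of the unit, so every BAY effect below belongs to an uncertain dose. All libraries come from this 1 cell line, and the labels call the replicates biological without saying what separated the cultures. P-values therefore measure the spread between these cultures.

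NRF2 is a transcription factor of the cap'n'collar family that switches on genes of antioxidant defence, glutathione synthesis and detoxification. Under resting conditions KEAP1 holds NRF2 in the cytoplasm and passes it to the CUL3 ubiquitin ligase for degradation, and oxidants or electrophiles that modify KEAP1 let NRF2 escape. Inside the nucleus NRF2 pairs with small MAF proteins and binds antioxidant response elements, which the repressor BACH1 can also occupy. NRF2 activity is thus set largely at the protein level, which RNA libraries do not measure. NFE2L3 encodes NRF3, a membrane-anchored relative of NRF2 whose functions are less well known. In kidney tubules this pathway is known for protection against oxidative injury.

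On GRCh38 with GENCODE 29, all 10 are protein-coding genes. NFE2L2 (ENSG00000116044) lies on chromosome 2 from 177227595 to 177392697, KEAP1 (ENSG00000079999) on chromosome 19 from 10486120 to 10503741, and NFE2L3 (ENSG00000050344) on chromosome 7 from 26152240 to 26187125. HMOX1 (ENSG00000100292), the inducible haem oxygenase, lies on chromosome 22 from 35380361 to 35394214, and NQO1 (ENSG00000181019), a quinone reductase, on chromosome 16 from 69706996 to 69726951. GCLC (ENSG00000001084, chromosome 6, 53497341 to 53616970) and GCLM (ENSG00000023909, chromosome 1, 93885205 to 93909456) encode the catalytic and modifier subunits of glutamate-cysteine ligase, the first enzyme of glutathione synthesis. TXNRD1 (ENSG00000198431, chromosome 12, 104215779 to 104350305) encodes thioredoxin reductase, SRXN1 (ENSG00000271303, chromosome 20, 646615 to 653370) encodes sulfiredoxin, which repairs overoxidised peroxiredoxins, and OSGIN1 (ENSG00000140961, chromosome 16, 83948282 to 83966332) is an oxidative stress-induced growth inhibitor. Overlapping genes can share reads. NFE2L2 shares 1054 exon bases with AC019080.1 on the same strand, which held 842.2 to 1463 estimated counts a library against 6694.2 to 25500.6 for NFE2L2, and 54 bases with AGPS on the opposite strand. SRXN1 shares 2292 exon bases with AL121758.1, which held at most 6.9 counts.

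Antioxidant response elements contain the letters TGACNNNGC, where N is any base. RefSeq (GRCh38.p14) gave 12 promoters, from 250 bases before to 50 bases after a start site, for 9 of the 10 members, and HMOX1 is named only. The 9 letters were searched on both strands, with no other motif searched. They stood in 4 of the 12 promoters, belonging to GCLM, KEAP1 and TXNRD1 (both of its promoters), against 13.3% of all 35116 promoters in the table. The promoter of NQO1, the member that fell most in hypoxia, held 0 matches, and promoter 2 of KEAP1, among the members that moved least, held 2. Bases outside this window were not searched. Promoters of the 3 genes are shown because they hold a match, with only promoter 1 shown for TXNRD1. The promoters shown read 5′ to 3′ on the strand of the gene, with each match in capitals (a match on the other strand reads GCNNNGTCA). The match of GCLM began 34 bases before its start site, those of TXNRD1 promoter 1 began 99 and 8 bases before, and those of KEAP1 promoter 2 began 54 and 31 bases before. A match is a run of letters and not a shown binding site.
GCLM promoter, chr1:93909381-93909680, minus strand: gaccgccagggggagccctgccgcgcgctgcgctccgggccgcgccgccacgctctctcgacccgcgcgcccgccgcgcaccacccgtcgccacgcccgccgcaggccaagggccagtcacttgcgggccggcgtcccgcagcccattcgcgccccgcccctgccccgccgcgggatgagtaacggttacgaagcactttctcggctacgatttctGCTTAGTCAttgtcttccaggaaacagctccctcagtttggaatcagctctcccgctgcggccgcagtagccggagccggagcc
TXNRD1 promoter 1, chr12:104215529-104215828, plus strand: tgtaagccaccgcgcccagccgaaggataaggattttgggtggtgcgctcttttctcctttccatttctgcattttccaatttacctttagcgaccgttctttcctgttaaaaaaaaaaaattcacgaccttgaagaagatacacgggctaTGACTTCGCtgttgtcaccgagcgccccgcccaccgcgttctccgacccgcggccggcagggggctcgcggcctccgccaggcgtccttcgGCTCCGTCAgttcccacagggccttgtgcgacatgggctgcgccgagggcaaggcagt
KEAP1 promoter 2, chr19:10502722-10503021, minus strand: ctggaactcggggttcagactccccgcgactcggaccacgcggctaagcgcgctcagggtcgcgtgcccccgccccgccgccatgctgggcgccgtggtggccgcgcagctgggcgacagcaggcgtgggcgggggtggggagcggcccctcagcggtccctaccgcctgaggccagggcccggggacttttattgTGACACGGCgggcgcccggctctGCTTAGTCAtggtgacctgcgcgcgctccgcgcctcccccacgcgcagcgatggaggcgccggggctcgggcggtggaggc

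Library totals ran from 78862528 to 105571250 estimated counts, and the member with the fewest counts, OSGIN1, had at least 339 estimated counts in every library. Known targets of the treatments moved: in hypoxia CA9 rose by 6.94 and NDRG1 by 5.12 on the log2 scale, and with TGF-β1 SMAD7 rose by 2.06. The epithelial genes KRT8, KRT18 and PAX8 averaged 629, 295 and 313 CPM (counts scaled to a common library size with TMM factors). Of the 8 proximal tubule markers GGT1 and MME averaged 166 and 37.7 CPM and SLC34A1 3.06 CPM, while LRP2, ANPEP, AQP1, SLC5A2 and CUBN never passed 0.707, 0.670, 1.94, 1.98 and 2.28 CPM in any library. Endothelial and immune markers summed to at most 0.174 and 3.00 CPM, with CD3E at 0. The 5 fibroblast markers summed to 262 to 284 CPM with TGF-β1 and BAY, 286 to 299 with TGF-β1, 223 to 242 with BAY in hypoxia, 124 to 131 with solvent in hypoxia, 163 to 169 with BAY in normoxia and 110 to 134 with solvent in normoxia. COL1A1 and LUM made up most of that sum, COL1A2 did not pass 0.0561 CPM, and the part of these genes in the results below was not tested. In bulk RNA, fewer cells with a transcript and less transcript per cell cannot be told apart.

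The 15 normoxic libraries of the 3 groups of 5 fell into 2 subsets that the labels do not name. They were found from the first component of the deviations within groups, computed on 14762 genes without the members, which held 26.8% of that variance. Subset 1 holds solvent replicates 1, 2 and 5, TGF-β1 replicates 1 and 2 and TGF-β1 with BAY replicates 1 and 2, and subset 2 holds the other 8. HMOX1 was 1.39 to 1.48 times, NQO1 1.25 to 1.35 times and TXNRD1 1.14 to 1.29 times as high in subset 1 as in subset 2 of the same group, with no overlap. SRXN1 (1.11 to 1.17 times) and GCLM (1.07 to 1.19 times) were also higher in subset 1 without overlap. NFE2L2 was lower there without overlap (0.93 to 0.97 times). KEAP1, NFE2L3, GCLC and OSGIN1 overlapped between subsets in at least 1 group. The BAY libraries in normoxia and all hypoxic libraries could not be placed in a subset. Results for HMOX1, NQO1 and TXNRD1, and some for other members, are therefore also given within subsets. The RNA numbers in the labels run group by group, apart from solvent replicate 5 in normoxia (RNA 18), which follows the TGF-β1 groups. For the other libraries, handling that followed these numbers cannot be told apart from treatment.

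**Figure D1:**
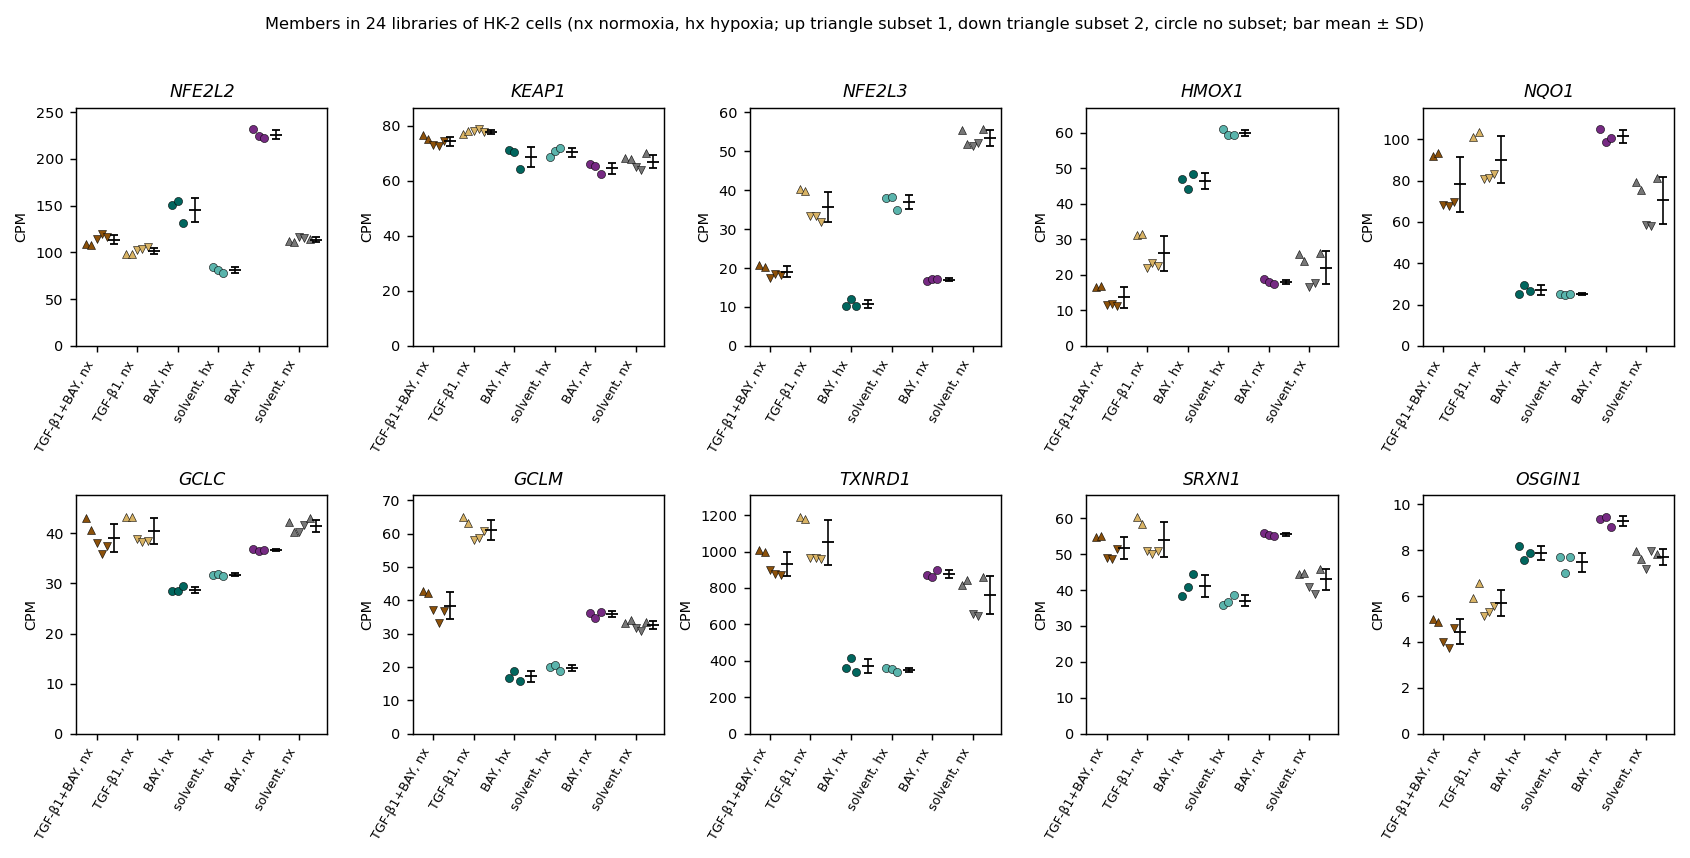
Levels of the 10 members in CPM (vertical axis, linear, from 0) in each library of the 6 groups, with mean and SD beside the points; up triangles are subset 1, down triangles subset 2 and circles libraries of no subset. NFE2L2 stands at 222 to 232 CPM with BAY in normoxia, and NFE2L3 at 51.4 to 55.7 CPM with solvent in normoxia, above every other group.

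The first comparison asked what 24 h of hypoxia did to solvent-treated cells. Most of the antioxidant genes fell: NQO1 dropped to 0.36 times its normoxic level, TXNRD1 to 0.46 times, GCLM to 0.61 times and GCLC to 0.77 times, and NFE2L2 itself fell to 0.71 times. HMOX1 moved against the rest and rose 2.73-fold. NFE2L3 also fell, to 0.69 times. In counts, 1 member rose and 7 fell of 10, a total of 8, against 60.8% of all 21316 genes called (29.2% higher and 31.6% lower). A change of at least 2-fold was called for 3 members and 13.4% of all genes. A gene was called at a Benjamini-Hochberg adjusted p below 0.05 in edgeR's quasi-likelihood test. The share of members called is not far from that of all genes, and the median log2 fold change was -0.44 for the members and -0.02 for all genes.

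Among the regulators, NFE2L2 had 84.4, 81.0 and 78.4 CPM in hypoxia, against 112, 111, 117, 115 and 114 CPM in normoxia. Every hypoxic library lay below every normoxic one, with a change of -0.48 (SE 0.0494, edgeR adjusted p = 3.8e-07). KEAP1 had 68.7, 70.8 and 71.9 CPM in hypoxia, against 64.1 to 70.0 CPM in normoxia, with overlap, and was not called (0.07, SE 0.0377, edgeR adjusted p = 0.105). Against the normoxic libraries of subset 2 alone KEAP1 was called higher (0.14, edgeR adjusted p = 0.0232). NFE2L3 had 37.9, 38.3 and 34.9 CPM in hypoxia, against 51.4 to 55.7 CPM in normoxia. These groups lay apart (-0.53, SE 0.0515, edgeR adjusted p = 2.47e-07).

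HMOX1, which breaks haem down to biliverdin, iron and carbon monoxide, had 60.9, 59.2 and 59.4 CPM in hypoxia, against 25.8, 24.0, 16.4, 17.7 and 26.1 CPM in normoxia. The hypoxic libraries were close together and all above the normoxic ones, which split by subset. The log2 fold change was 1.45 (SE 0.122, edgeR adjusted p = 3e-07), and 1.26 and 1.83 against subsets 1 and 2 alone. NQO1 had 25.1, 24.6 and 25.3 CPM in hypoxia, against 79.3, 75.6, 58.4, 58.1 and 81.3 CPM in normoxia. Its fall of 1.49 on the log2 scale (SE 0.106, edgeR adjusted p = 3.32e-08) was the largest of the members and was 1.63 and 1.21 against subsets 1 and 2 alone. Only 6.59% of all tested genes changed at least as much as NQO1, and 7.12% as much as HMOX1.

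Both glutamate-cysteine ligase subunits fell. GCLM, whose promoter with a match is shown above, had 19.9, 20.5 and 18.8 CPM in hypoxia, against 33.1, 34, 31.8, 30.7 and 33.4 CPM in normoxia. GCLC had 31.8, 32.0 and 31.5 CPM in hypoxia, against 40.2 to 43.1 CPM in normoxia. Neither gene overlapped between the groups, and the log2 fold change was -0.72 (SE 0.0524) for GCLM and -0.39 (SE 0.0322) for GCLC.

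In the thioredoxin branch, TXNRD1 had 358, 355 and 337 CPM in hypoxia, against 813, 842, 655, 646 and 859 CPM in normoxia. That is a log2 fold change of -1.12 (SE 0.0904, edgeR adjusted p = 6.64e-08), and of -1.24 and -0.88 against subsets 1 and 2 alone. SRXN1 had 35.8, 36.7 and 38.7 CPM in hypoxia, against 44.5, 44.7, 40.7, 39.0 and 45.8 CPM in normoxia. The gap was narrow, and the call at -0.21 (edgeR adjusted p = 0.00229) was lost against subset 2 alone (-0.09, edgeR adjusted p = 0.199). OSGIN1 ranged over 6.99 to 7.73 CPM in hypoxia and 7.17 to 7.96 CPM in normoxia and was not called (-0.04, edgeR adjusted p = 0.565).

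Other genes of the pathway came from lists of 12 partners and regulators and 40 wider targets, of which 12 and 37 were tested. Of the wider targets 9 rose, 20 fell and 8 were not called, with a median of -0.18. SLC7A11, the cystine transporter that feeds glutathione synthesis, fell by 2.21, the export pump ABCC2 by 1.04 and pirin, PIR, by 0.98. GSTM3, a glutathione transferase, TKT, transketolase, CYP4F11 and BLVRB, a biliverdin reductase, rose by 0.80, 0.78, 0.70 and 0.66. Members of the AKR1C, GSTM, ferritin and TRIM16 families have near-identical copies, and so has GGT1, so reads may be split between copies. Of the partners 3 rose, 5 fell and 4 were not called. BACH1, the repressor known to act on HMOX1, rose by 0.65, and the small MAF gene MAFK and the KEAP1 binder SQSTM1 by 0.51 and 0.19, while CUL3, BTRC, RBX1 and GSK3B, which take part in NRF2 degradation, fell by 0.62, 0.41, 0.30 and 0.27.

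**Figure D2:**
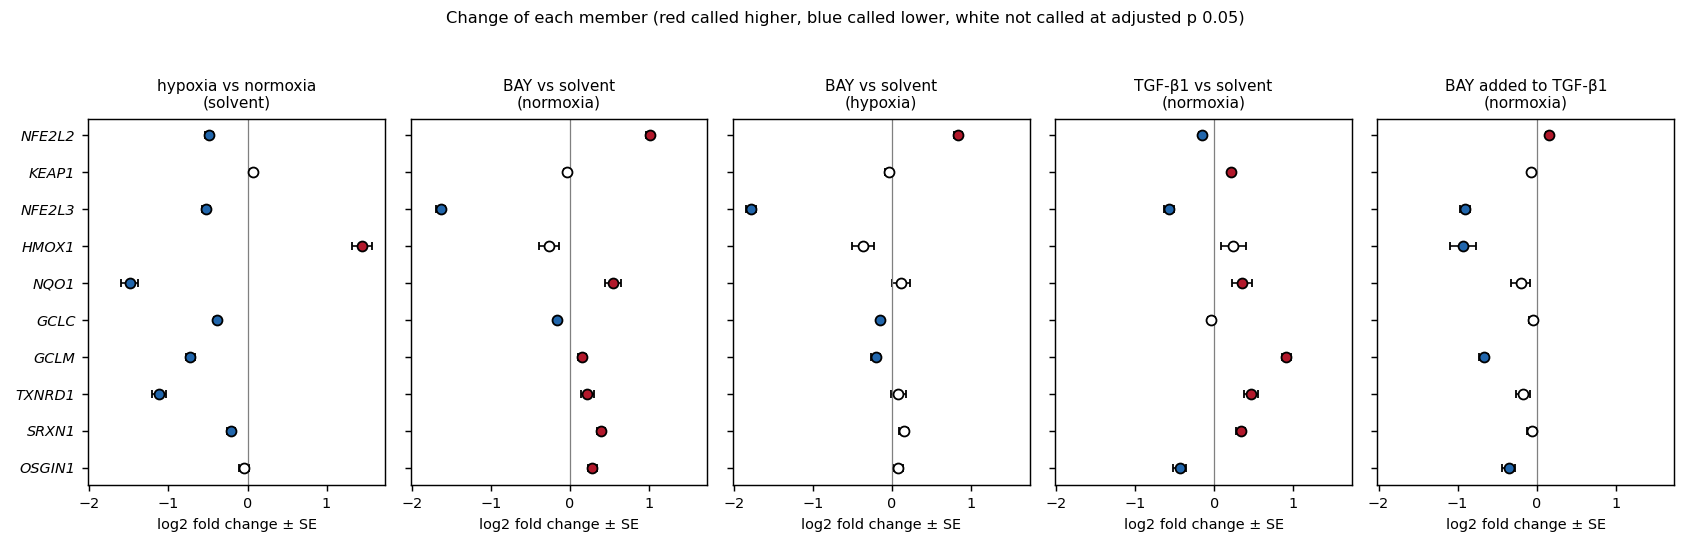
Log2 fold change with SE (horizontal axis) of each member (rows) in the 5 pairwise comparisons; red is called higher, blue called lower and white not called. HMOX1 is at 1.45 and NQO1 at -1.49 in hypoxia, and NFE2L3 is left of 0 in all 5 panels.

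The second comparison asked what BAY did in normoxic cells. NFE2L2 doubled (2.01-fold) and NFE2L3 fell to 0.32 times its control level, so the genes of these related factors moved in opposite directions. NQO1 rose 1.46-fold, SRXN1 1.31-fold and OSGIN1 1.22-fold. GCLM and TXNRD1 rose less (1.11-fold and 1.17-fold) and GCLC fell to 0.90 times. In all 6 members rose and 2 fell, 8 of 10, against 43.9% of all genes called (20.6% higher and 23.3% lower). At least a 2-fold change was called for 2 members and 5.86% of all genes. The members' median was 0.19, beside 0.00408 for all genes.

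NFE2L2 had 232, 224 and 222 CPM with BAY, against 112, 111, 117, 115 and 114 CPM with solvent. Each BAY library held nearly 2 times the level of each control, at a log2 fold change of 1.01 (SE 0.0473, edgeR adjusted p = 2.32e-10). KEAP1 had 66.1, 65.5 and 62.3 CPM with BAY, against 64.1 to 70.0 CPM with solvent, and was not called (-0.03, SE 0.0377, edgeR adjusted p = 0.518). NFE2L3 had 16.6, 17.2 and 17.2 CPM with BAY, against 55.5, 51.9, 51.4, 52.3 and 55.7 CPM with solvent. No control came near the BAY libraries (-1.63, SE 0.0546, edgeR adjusted p = 6.21e-12), and 2.84% of all tested genes changed at least as much.

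NQO1 had 105, 98.9 and 100.4 CPM with BAY, against 79.3, 75.6, 58.4, 58.1 and 81.3 CPM with solvent. All BAY libraries lay above all controls (0.55, SE 0.0965, edgeR adjusted p = 0.000477), and the value was 0.38 and 0.80 against the controls of subsets 1 and 2 alone. HMOX1 had 18.7, 17.9 and 17.5 CPM with BAY, against 25.8, 24.0 and 26.1 CPM in the controls of subset 1 and 16.4 and 17.7 CPM in those of subset 2. The BAY libraries thus lay below the controls of subset 1 and near those of subset 2. It was not called (-0.27, SE 0.128, edgeR adjusted p = 0.115). Against subset 1 alone HMOX1 was called lower (-0.48, edgeR adjusted p = 9.43e-07) and against subset 2 alone the value was 0.08 (edgeR adjusted p = 0.274), so its direction with BAY in normoxia depends on which controls are used. Leaving out control replicate 3 or 4, both of subset 2, also gave a call (-0.35 and -0.33, edgeR adjusted p = 0.0104 and 0.0415).

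SRXN1 had 56.0, 55.4 and 55.1 CPM with BAY, against 39.0 to 45.8 CPM with solvent (0.39, SE 0.0507, edgeR adjusted p = 1.46e-05). OSGIN1 had 9.37, 9.45 and 9.03 CPM with BAY, against 7.17 to 7.96 CPM with solvent (0.29, SE 0.0592, edgeR adjusted p = 0.00104). Neither gene overlapped between the groups. GCLM had 36.3, 34.8 and 36.4 CPM with BAY, against 30.7 to 34 CPM with solvent (0.16, edgeR adjusted p = 0.0197). TXNRD1 had 874, 859 and 899 CPM with BAY, against 646 to 859 CPM with solvent, so the lowest BAY library was level with the highest control. Its call (0.22, edgeR adjusted p = 0.0496) was at the threshold. It was lost with RLE scaling (edgeR adjusted p = 0.0842), with no filter (0.0975), with DESeq2 (0.0613) and with all 24 libraries in 1 fit (0.104), and also without any single BAY library (0.19 to 0.23, edgeR adjusted p = 0.13 to 0.197), without control replicate 3 or 4 (0.18 and 0.17) and against subset 1 alone (0.08, edgeR adjusted p = 0.291). That of GCLM was lost without BAY replicate 1, 2 or 3 (0.14, 0.17 and 0.14) against subset 1 alone (0.11, edgeR adjusted p = 0.122) and with all 24 libraries in 1 fit (0.14, edgeR adjusted p = 0.108). GCLC had 36.8, 36.5 and 36.8 CPM with BAY, against 40.2 to 43.1 CPM with solvent, a small fall with no overlap (-0.16, SE 0.0319, edgeR adjusted p = 0.000803).

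Of the 37 wider targets 11 rose, 12 fell and 14 were not called. ABCC3, an export pump, rose by 1.03, the aldo-keto reductase AKR1C3 by 0.73, the glutathione-cleaving enzyme GGT1 by 0.59 and TRIM16L by 0.51. SLC7A11 fell by 1.0, the glutathione conjugate pump ABCC1 by 0.81, the transferase MGST1 by 0.36 and the peroxiredoxin PRDX1 by 0.32. Of the partners 3 rose and 5 fell. MAFK rose by 0.92, MAFG by 0.33 and SQSTM1 by 0.24, while MAFF fell by 0.69, NFE2L1, a further relative of NRF2, by 0.32, BACH1 by 0.27 and GSK3B by 0.20.

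The third comparison asked what BAY did in hypoxic cells. NFE2L2 rose again (1.78-fold) and NFE2L3 fell again, to 0.29 times. Of the 7 antioxidant genes 0 were called higher: GCLM fell to 0.87 times and GCLC to 0.90 times, and HMOX1, NQO1, TXNRD1, SRXN1 and OSGIN1 were not called. In all 1 member rose and 3 fell, 4 of 10, against 37.9% of all genes (16.5% higher and 21.4% lower), and 1 member and 5.08% of all genes were called with at least a 2-fold change. That share is near that of all genes. Among all genes 3524 were higher and 4563 lower, and with library totals in place of TMM 2743 were higher and 5560 lower.

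NFE2L2 had 150.5, 155 and 131 CPM with BAY in hypoxia, against 84.4, 81.0 and 78.4 CPM with solvent in hypoxia. The BAY libraries were all higher (0.83, SE 0.0546, edgeR adjusted p = 1.25e-08). NFE2L3 had 10.2, 12.0 and 10.2 CPM with BAY in hypoxia, against 37.9, 38.3 and 34.9 CPM with solvent in hypoxia. This was the largest change among the members in the 5 pairwise comparisons (-1.78, SE 0.0605, edgeR adjusted p = 1.47e-11), and 2.28% of all tested genes changed at least as much. KEAP1 had 71.2, 70.4 and 64.4 CPM with BAY, against 68.7 to 71.9 CPM with solvent, and was not called.

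HMOX1 had 46.9, 44.0 and 48.3 CPM with BAY in hypoxia, against 60.9, 59.2 and 59.4 CPM with solvent in hypoxia. All BAY libraries lay below all controls, but the log2 fold change of -0.37 (SE 0.138) narrowly missed the threshold (edgeR adjusted p = 0.0511). With the replicate number as a block, HMOX1 was called lower (-0.37, edgeR adjusted p = 0.0306), and likewise with library totals (-0.42, edgeR adjusted p = 0.0174) and with DESeq2 (-0.36, adjusted p = 0.0279). In the other 9 of 12 alternatives HMOX1 stayed uncalled. The edgeR adjusted p was 0.0745 with RLE scaling, 0.131 with no filter and 0.134 with all 24 libraries in 1 fit. It was 0.0815 to 0.141 with single libraries left out. NQO1 had 25.1, 29.7 and 26.7 CPM with BAY, against 24.6 to 25.3 CPM with solvent, and was not called (0.11, SE 0.114, edgeR adjusted p = 0.474). TXNRD1 had 360.3, 413 and 339.6 CPM with BAY, against 337 to 358 CPM with solvent (0.08, SE 0.0970, edgeR adjusted p = 0.568).

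GCLC had 28.4, 28.4 and 29.4 CPM with BAY in hypoxia, against 31.8, 32.0 and 31.5 CPM with solvent in hypoxia, with no overlap (-0.15, SE 0.0360, edgeR adjusted p = 0.0041), a call lost with all 24 libraries in 1 fit (-0.14, edgeR adjusted p = 0.0533). GCLM had 16.8, 18.9 and 15.8 CPM with BAY, against 19.9, 20.5 and 18.8 CPM with solvent, and the groups overlapped slightly. Its call (-0.21, edgeR adjusted p = 0.0101) was lost without BAY replicate 3 (-0.15, edgeR adjusted p = 0.0527). SRXN1 had 38.3, 40.8 and 44.5 CPM with BAY, against 35.8, 36.7 and 38.7 CPM with solvent, and missed the threshold (0.15, edgeR adjusted p = 0.0551). Without BAY replicate 1 or solvent replicate 3 SRXN1 was called (0.20 and 0.18, edgeR adjusted p = 0.0214 and 0.0397). OSGIN1 ranged over 7.59 to 8.19 CPM with BAY and 6.99 to 7.73 CPM with solvent and was not called.

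Of the partners MAFK stood out in size, at 402.8 ± 34.3 CPM with BAY in hypoxia and 83.6 ± 6.71 CPM with solvent in hypoxia (SD, n = 3 each). It rose by 2.27 on the log2 scale (edgeR adjusted p = 5.08e-10), while RBX1, SQSTM1 and NFE2L1 fell by 0.33, 0.20 and 0.20. Of the wider targets 7 rose, 13 fell and 17 were not called. Without BAY replicate 1 the 20 calls dropped to 13, while all genes called dropped from 8087 to 6879. SLC3A2, the partner chain of the cystine transporter, rose by 0.70, ABCC3 by 0.57, AKR1C3 by 0.38 and UGDH by 0.27. SLC7A11 fell by 0.58, the NADPH-forming enzymes IDH1 and ME1 by 0.47 and 0.37, and ABCC1 by 0.41.

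The oxygen by BAY interaction tests whether the BAY effect in hypoxia differed from that in normoxia. A negative value means a less positive effect in hypoxia. GCLM was called higher with BAY in normoxia and lower in hypoxia, calls lost in 6 of 16 and 1 of 12 alternatives. Its interaction was -0.36 (SE 0.0770, edgeR adjusted p = 0.00443). SRXN1 was also called (-0.24, SE 0.0772, edgeR adjusted p = 0.0436), but this call was lost with RLE scaling (-0.22), with DESeq2 (-0.22), with all 24 libraries in 1 fit (-0.22) and with subset 1 alone (-0.15), and also without any single BAY library of normoxia (-0.21 to -0.22), without solvent replicate 1, 3 or 4 of normoxia (-0.22 to -0.25), without BAY replicate 1 or 2 of hypoxia (-0.20 and -0.23) and without solvent replicate 2 or 3 of hypoxia (-0.25 and -0.21). NQO1, which rose with BAY in normoxia and was not called in hypoxia, had an interaction of -0.43 that missed the threshold (SE 0.150, edgeR adjusted p = 0.0686) and was called with the controls of either subset alone (-0.25 and -0.67, edgeR adjusted p = 0.0227 and 8.11e-05) or without control replicate 1 or 5 (-0.47 and -0.49). NFE2L2 (-0.17, edgeR adjusted p = 0.118) and NFE2L3 (-0.15, edgeR adjusted p = 0.213) were not called. With library totals NFE2L2 was called (-0.26, edgeR adjusted p = 0.0299), and without BAY replicate 2 of hypoxia NFE2L3 was called (-0.23, edgeR adjusted p = 0.0291). In all 0 members were called more positive and 2 less positive, against 16.8% of all genes called (8.83% more and 7.92% less positive) and 1.95% called with at least a 2-fold interaction. Among all genes 1882 were more and 1689 less positive, and with library totals in place of TMM 1167 were more and 2930 less. Of the partners MAFK had the largest interaction (1.34), MAFF, BACH1 and BACH2 were also more positive (0.72, 0.37 and 0.36), and SQSTM1 and MAFG were less positive (-0.44 and -0.37). Of the wider targets 1 was more positive, SLC3A2 (0.83), and 7 were less positive, led by GGT1 (-0.53), TRIM16L (-0.53), IDH1 (-0.51) and ABCC4 (-0.40).

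**Figure D3:**
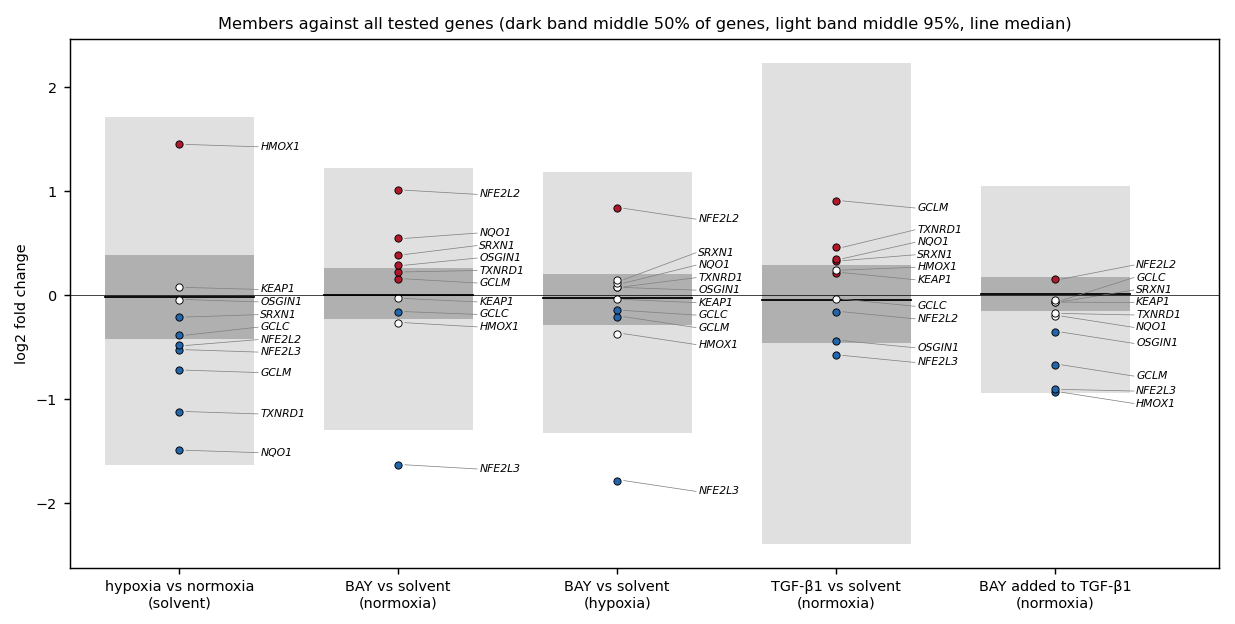
Log2 fold change (vertical axis) of the members in the 5 pairwise comparisons, over bands that hold the middle 50% (dark) and 95% (light) of all tested genes. NFE2L3 lies below the light band with BAY in normoxia (-1.63) and in hypoxia (-1.78), and every other member lies inside it in each comparison.

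The fourth comparison asked what TGF-β1 did in normoxic cells. GCLM rose most, 1.87-fold, and TXNRD1, NQO1 and SRXN1 rose 1.38-fold, 1.28-fold and 1.26-fold. KEAP1 rose 1.16-fold. NFE2L3 fell to 0.67 times, OSGIN1 to 0.74 times and NFE2L2 to 0.89 times. In all 5 members rose and 3 fell, 8 of 10, against 62% of all 21639 genes called (29.5% higher and 32.5% lower), and 0 members and 17% of all genes were called with at least a 2-fold change. The share of members called is again not far from that of all genes. Within subset 1, 10 members (7 higher, 3 lower) and 13014 of all genes were called. Within subset 2, 9 members (6 higher, 3 lower) and 13145 genes were called. With the subset as a term 9 members (6 higher, 3 lower) and 14383 genes were called, beside 13422 genes in the pooled fit. With library totals in place of TMM, the median of all genes moved to -0.175 on the log2 scale, beside -0.04 with TMM. Under that scaling 4689 genes were higher and 9078 lower, beside 6380 and 7042 with TMM, and the members split into 4 higher and 4 lower. NQO1 lost its call under it (0.22, edgeR adjusted p = 0.0696), and GCLC gained a call lower (-0.17, edgeR adjusted p = 0.000618).

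GCLM had 65.0, 63.2, 58.0, 58.7 and 60.9 CPM with TGF-β1, against 33.1, 34, 31.8, 30.7 and 33.4 CPM with solvent. The lowest TGF-β1 library was well above the highest control (0.91, SE 0.0568, edgeR adjusted p = 9.33e-11). GCLC had 43.2, 43.3, 38.8, 38.3 and 38.5 CPM with TGF-β1, against 40.2 to 43.1 CPM with solvent, with overlap and no call (-0.04, SE 0.0471, edgeR adjusted p = 0.491). Within subset 1 GCLC was called higher (0.09, edgeR adjusted p = 0.0453), so its direction is not settled.

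TXNRD1 had 1189.5, 1178, 962, 963 and 958 CPM with TGF-β1, against 813, 842, 655, 646 and 859 CPM with solvent. All TGF-β1 libraries were above all controls (0.46, SE 0.0882, edgeR adjusted p = 0.000191), and the change was 0.54 and 0.57 within subsets 1 and 2. NQO1 had 101, 104, 80.6, 81.3 and 83.3 CPM with TGF-β1, against 79.3, 75.6, 58.4, 58.1 and 81.3 CPM with solvent. The groups overlapped, but within each subset they did not, and the log2 fold change of 0.35 (edgeR adjusted p = 0.0202) was 0.42 and 0.50 within subsets 1 and 2. The pooled call of NQO1 was lost without control replicate 3 or 4 or TGF-β1 replicate 1 or 2 (0.29 to 0.31, edgeR adjusted p = 0.054 to 0.0576). SRXN1 had 60.4, 58.3, 50.9, 49.99 and 50.8 CPM with TGF-β1, against 39.0 to 45.8 CPM with solvent, with no overlap (0.33, SE 0.0582).

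HMOX1 had 31.1, 31.4, 21.8, 23.2 and 22.5 CPM with TGF-β1, against 25.8, 24.0, 16.4, 17.7 and 26.1 CPM with solvent. Pooled over subsets it was not called (0.24, SE 0.160, edgeR adjusted p = 0.208). Within subsets 1 and 2 HMOX1 was called higher (0.35 and 0.41, edgeR adjusted p = 1.26e-05 and 6.64e-06), and likewise with the subset as a term (0.35, edgeR adjusted p = 5.48e-08). NFE2L3 had 40.2, 39.8, 33.4, 33.3 and 31.9 CPM with TGF-β1, against 51.4 to 55.7 CPM with solvent, with a wide gap (-0.58, SE 0.0632, edgeR adjusted p = 2e-07). Within subsets 1 and 2 the change of NFE2L3 was -0.40 and -0.65. NFE2L2 had 98.2, 98.7, 103, 104 and 106 CPM with TGF-β1, against 111 to 117 CPM with solvent, a small but separate fall (-0.16, SE 0.0309, edgeR adjusted p = 0.000173). KEAP1 had 76.9 to 78.8 CPM with TGF-β1, against 64.1 to 70.0 CPM with solvent (0.22, SE 0.0271, edgeR adjusted p = 1.29e-06). OSGIN1 had 5.91, 6.56, 5.14, 5.29 and 5.56 CPM with TGF-β1, against 7.17 to 7.96 CPM with solvent, all lower (-0.44, SE 0.0811, edgeR adjusted p = 0.000116).

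Of the wider targets 11 rose, 14 fell and 12 were not called. PRDX1, a peroxiredoxin, had 1010.2 ± 34.6 CPM with TGF-β1 and 420.0 ± 39.2 CPM with solvent (n = 5 each, SD; a log2 fold change of 1.26). SLC7A11 rose by 1.19, TALDO1, transaldolase, by 0.79 and ME1 by 0.67. The export pumps ABCC2, ABCC4 and ABCC3 fell by 2.02, 1.52 and 1.30, and GGT1 fell by 1.21. Of the partners MAFG, RBX1, BACH2 and CUL3 rose by 0.43, 0.39, 0.37 and 0.19. NFE2, MAFF, BACH1 and BTRC fell by 1.44, 0.72, 0.46 and 0.08, with NFE2 at no more than 1.25 CPM in either group on average.

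The fifth comparison asked what BAY did when added to TGF-β1. HMOX1 fell to 0.52 times its level with TGF-β1 alone, NFE2L3 to 0.53 times, GCLM to 0.63 times and OSGIN1 to 0.78 times. NFE2L2 rose, but only 1.11-fold. In all 1 member rose and 4 fell, 5 of 10, against 29.5% of all genes called (13.9% higher and 15.6% lower), and 0 members and 2.9% of all genes were called with at least a 2-fold change. The members' median was -0.19, beside 0.00597 for all genes. With the subset as a term 9 members were called, 1 higher and 8 lower, and within subset 1 or subset 2 alone 8, again 1 higher and 7 lower. The 29.5% of all genes belongs to the pooled fit, and the share of all genes called in these fits is not given. These counts are therefore not read as a result about the members.

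GCLM had 42.6, 42.2, 37.2, 33.2 and 36.8 CPM with TGF-β1 and BAY, against 65.0, 63.2, 58.0, 58.7 and 60.9 CPM with TGF-β1. No library of one group reached the other (-0.67, SE 0.0566, edgeR adjusted p = 5.25e-08). HMOX1 had 16.6, 16.8, 11.6, 11.9 and 11.2 CPM with TGF-β1 and BAY, against 31.1, 31.4, 21.8, 23.2 and 22.5 CPM with TGF-β1. The groups lay apart although each split by subset (-0.93, SE 0.162, edgeR adjusted p = 0.000297), and the change was -0.92 and -0.97 within subsets 1 and 2. Of all tested genes 5.69% changed at least as much as HMOX1.

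NFE2L3 had 20.9, 20.3, 17.5, 18.4 and 18.3 CPM with TGF-β1 and BAY, against 40.2, 39.8, 33.4, 33.3 and 31.9 CPM with TGF-β1, with no overlap (-0.91, SE 0.0644, edgeR adjusted p = 5.27e-09). NFE2L2 had 109, 108, 114, 119 and 117 CPM with TGF-β1 and BAY, against 98.2, 98.7, 103, 104 and 106 CPM with TGF-β1, all higher by a small step (0.15, SE 0.0309, edgeR adjusted p = 0.000853). OSGIN1 had 5.00, 4.87, 4.02, 3.74 and 4.61 CPM with TGF-β1 and BAY, against 5.14 to 6.56 CPM with TGF-β1 (-0.36, SE 0.0818, edgeR adjusted p = 0.00263). KEAP1 had 72.6 to 76.6 CPM with TGF-β1 and BAY, against 76.9 to 78.8 CPM with TGF-β1. These did not overlap, yet KEAP1 was not called (-0.07, SE 0.0271, edgeR adjusted p = 0.0692). With the subset as a term it was called lower (-0.07, edgeR adjusted p = 0.016).

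NQO1 had 91.9, 93.6, 68.2, 67.8 and 69.7 CPM with TGF-β1 and BAY, against 101, 104, 80.6, 81.3 and 83.3 CPM with TGF-β1. Pooled it was not called (-0.20, SE 0.123, edgeR adjusted p = 0.247), and within subsets 1 and 2 it was called lower (-0.16 and -0.26, edgeR adjusted p = 0.00569 and 6.35e-06). TXNRD1 had 1005.8, 996, 898, 878 and 869 CPM with TGF-β1 and BAY, against 958 to 1189.5 CPM with TGF-β1. It too was called lower within subsets 1 and 2 (-0.25 and -0.13, edgeR adjusted p = 2.83e-05 and 0.00107) and not in the pooled fit (-0.18, edgeR adjusted p = 0.152). SRXN1 (-0.06, edgeR adjusted p = 0.471) and GCLC (-0.05, edgeR adjusted p = 0.476) overlapped between the groups and were not called in the pooled fit. SRXN1 was called lower in 2 of 19 alternatives, with the subset as a term (-0.06, edgeR adjusted p = 0.0484) and within subset 1 (edgeR adjusted p = 0.00607).

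Of the wider targets 1 rose, 18 fell and 18 were not called. The one that rose was SLC7A11, at 54.3 ± 4.73 CPM with TGF-β1 and BAY and 19.3 ± 1.5 CPM in cells given TGF-β1 alone (SD, n = 5 each; log2 fold change 1.5, edgeR adjusted p = 3.41e-11). TRIM16L, BLVRB, GGT1 and MGST1 fell by 0.45, 0.44, 0.43 and 0.41. Of the partners MAFK rose by 1.01, BACH2 fell by 0.73 and NFE2L1 fell by 0.16.

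**Figure D4:**
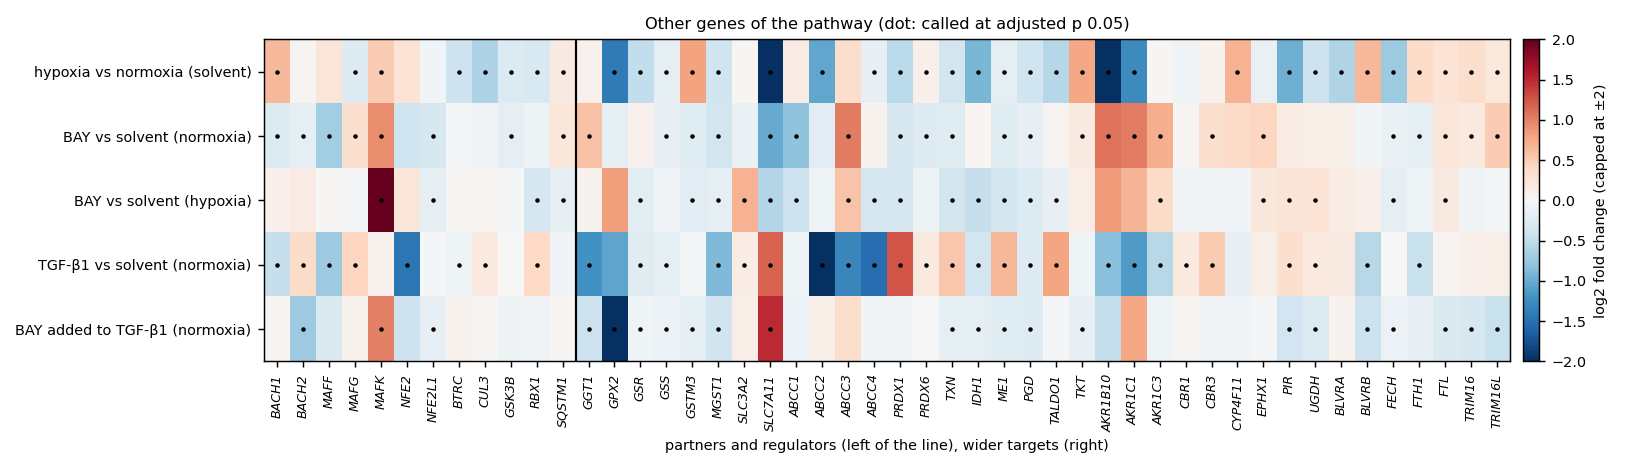
Log2 fold change (colour, capped at ±2) of the 12 partners and regulators (left of the line) and of wider targets (right) in the 5 pairwise comparisons (rows); a dot marks a called gene. MAFK is higher in hypoxia and in the 3 BAY rows (0.51, 0.92, 2.27 and 1.01), and SLC7A11 changes sign between rows, at -2.21 in hypoxia and 1.5 with BAY added to TGF-β1.

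The TGF-β1 by BAY interaction tests whether the BAY effect with TGF-β1 differed from that without it. A positive value means a more positive effect with TGF-β1. BAY effects without TGF-β1 are quoted from the fit of the hypoxia experiment, and the interaction comes from that of the TGF-β1 experiment. NFE2L2, which BAY raised 2.01-fold without TGF-β1 and 1.11-fold with it, had an interaction of -0.84 (SE 0.0467, edgeR adjusted p = 6.72e-10). NFE2L3 fell with BAY in both settings, but less with TGF-β1 (0.74, SE 0.0983, edgeR adjusted p = 2.27e-05). GCLM rose with BAY without TGF-β1 and fell with it (-0.81, SE 0.0859, edgeR adjusted p = 1.73e-06), and so did OSGIN1 (-0.63, SE 0.123, edgeR adjusted p = 0.00109). The rise of GCLM without TGF-β1 was small (0.16, edgeR adjusted p = 0.0197), and its call was lost in 6 of 16 alternatives. NQO1 (-0.73, SE 0.186, edgeR adjusted p = 0.00961) and SRXN1 (-0.44, SE 0.0884, edgeR adjusted p = 0.00145) rose with BAY without TGF-β1 and were not called with it. HMOX1 (-0.65, edgeR adjusted p = 0.0726) and TXNRD1 (-0.38, edgeR adjusted p = 0.054) missed the threshold, and with the libraries of subset 1 or subset 2 alone in the groups of 5 both were called (-0.47 and -1.04 for HMOX1, -0.36 and -0.56 for TXNRD1). Leaving out replicate 1 or 2 of TGF-β1 with BAY also gave a call for HMOX1 (-0.73 and -0.74), and leaving out control replicate 2 or 5, TGF-β1 replicate 3 or 4 or replicate 1 of TGF-β1 with BAY one for TXNRD1 (-0.41 to -0.43). GCLC (0.13) and KEAP1 (-0.02) were not called.

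In all 1 member had a more positive and 5 a less positive BAY effect with TGF-β1, 6 of 10, against 20.7% of all genes called (13.7% more and 7.08% less positive) and 0 members and 3.14% of all genes with at least a 2-fold interaction. Among all genes 2956 were more and 1531 less positive, and with library totals in place of TMM 2147 were more and 2275 less. The members' median was -0.53, beside 0.03 for all genes. Of the wider targets 5 were more positive, led by SLC7A11 (2.51) and ABCC1 (0.70), and 12 less, led by GGT1 (-1.0), TRIM16L (-0.94), AKR1C3 (-0.80) and PIR (-0.52). SLC7A11 fell with BAY without TGF-β1 and rose with it. Of the partners BACH1 (0.32) and NFE2L1 (0.17) were more positive and BACH2 (-0.52) and MAFG (-0.24) less.

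Over the 6 groups NFE2L3 ran from low to high as 10.8 ± 1.05 CPM with BAY in hypoxia (SD, n = 3), 17.0 ± 0.332 with BAY in normoxia (SD, n = 3), 19.1 ± 1.45 with TGF-β1 and BAY (SD, n = 5), 35.7 ± 3.94 with TGF-β1 (SD, n = 5), 37 ± 1.87 with solvent in hypoxia (SD, n = 3) and 53.4 ± 2.06 with solvent in normoxia (SD, n = 5). The 3 groups without BAY stood above the 3 groups with it, and only TGF-β1 and solvent in hypoxia overlapped among neighbours. NFE2L2 ran in another order, with 81.3 ± 3.01 CPM with solvent in hypoxia, 102 ± 3.32 with TGF-β1, 113 ± 4.87 with TGF-β1 and BAY, 114 ± 2.42 with solvent in normoxia, 145 ± 12.6 with BAY in hypoxia and 226 ± 5.14 with BAY in normoxia. TGF-β1 with BAY and solvent in normoxia did not differ beyond their spread. HMOX1 was lowest with TGF-β1 and BAY (13.6 ± 2.84 CPM), followed by BAY in normoxia (18.0 ± 0.629), solvent in normoxia (22.0 ± 4.60), TGF-β1 (26.0 ± 4.83), BAY in hypoxia (46.4 ± 2.19) and solvent in hypoxia (59.9 ± 0.932), and solvent in normoxia overlapped with each of the other 3 normoxic groups.

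NQO1 was lowest in the hypoxic groups, at 25 ± 0.356 CPM with solvent and 27.2 ± 2.33 CPM with BAY, and highest with BAY in normoxia, at 101 ± 3.12 CPM. TXNRD1 was also lowest in hypoxia, at 350.1 ± 11.3 CPM with solvent and 371 ± 38.0 CPM with BAY, and highest with TGF-β1, at 1050.1 ± 122 CPM. For GCLM the hypoxic groups were again lowest (17.2 ± 1.58 CPM with BAY, 19.7 ± 0.840 CPM with solvent) and TGF-β1 highest (61.2 ± 2.95 CPM), with the other 3 groups between 32.6 and 38.4 CPM. KEAP1 varied least, with group means of 64.7 to 77.9 CPM. OSGIN1 was lowest in the TGF-β1 groups (4.45 ± 0.548 CPM with BAY and 5.69 ± 0.566 CPM without it) and highest with BAY in normoxia (9.28 ± 0.225 CPM).

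Ratios of counts within a library need no scaling between libraries. They were chosen after the values were seen and carry no test, and their size also depends on transcript length, so they are read only across groups. NFE2L2 over NFE2L3 was 13.3 ± 0.567 with BAY and 2.13 ± 0.106 with solvent in normoxia (SD, n = 3 and 5), 13.5 ± 1.1 with BAY and 2.20 ± 0.0695 with solvent in hypoxia (SD, n = 3 each), and 5.99 ± 0.663 with TGF-β1 and BAY and 2.89 ± 0.399 with TGF-β1 alone (n = 5 each). The ratio was near 13 with BAY in both oxygen levels and near 2 without BAY in both, and no group with BAY overlapped a group without it. GCLM over GCLC was 0.983 ± 0.0415 with TGF-β1 and BAY and 1.51 ± 0.0469 with TGF-β1 (SD, n = 5 each), 0.598 ± 0.0642 with BAY and 0.622 ± 0.0214 with solvent in hypoxia (SD, n = 3 each), and 0.977 ± 0.0194 with BAY and 0.786 ± 0.0370 with solvent in normoxia (SD, n = 3 and 5). With BAY in normoxia the ratio of the modifier to the catalytic subunit thus had nearly the same value with and without TGF-β1. HMOX1 over NQO1 was 0.173 ± 0.0084 with TGF-β1 and BAY and 0.287 ± 0.0178 with TGF-β1, 1.72 ± 0.208 with BAY and 2.39 ± 0.0420 with solvent in hypoxia, and 0.178 ± 0.00349 with BAY and 0.310 ± 0.0179 with solvent in normoxia. HMOX1 over NQO1 was thus lower with BAY than without it in all 3 settings, with no overlap. The solvent libraries of normoxia spanned 0.281 to 0.325 in this ratio, over both subsets.

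**Figure D5:**
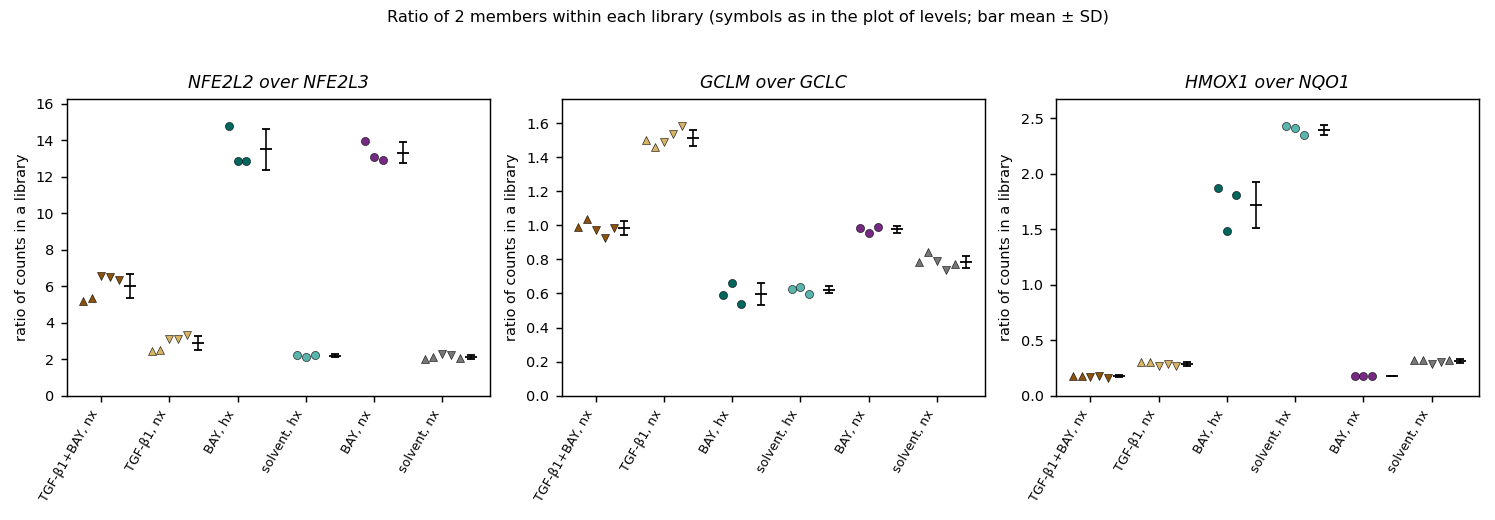
Ratio of the counts of a pair of members within each library (vertical axis) in the 6 groups, with mean and SD; symbols mark subsets as in the plot of levels. NFE2L2 over NFE2L3 is 12.9 to 14.8 in the 6 BAY libraries without TGF-β1 and at most 3.32 in the 13 libraries without BAY.

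Genes with a pattern like that of a member were sought among 11463 genes, by the root mean square difference (RMS) of the 6 group means of log2 CPM after centring. Closest to NFE2L3 were IKZF3 (RMS 0.204), FJX1 (0.218), NAT8L (0.234), MIR4435-2HG (0.240) and CD83 (0.247), beside a median RMS of 0.835 over all candidates. IKZF3, a lymphoid transcription factor gene, had 2.45 CPM with BAY and 7.81 CPM with solvent in hypoxia on average, and 5.35 CPM with BAY and 13.1 CPM with solvent in normoxia. For HMOX1 the closest were STBD1, a glycogen-binding protein gene (0.190), CNKSR1 (0.192), TMEM255A (0.202), TNIP1, an inhibitor of NF-κB signalling (0.202), and PDLIM1 (0.205), beside a median of 0.827. NQO1 had the closest neighbours of the 3, PASK (0.0952), WDR76 (0.141), FAM111B (0.189), ESCO2, a cohesin acetyltransferase gene (0.195), and BARD1, the partner of BRCA1 (0.198), beside a median of 0.846. With 6 group means behind each, these values only describe likeness over these groups.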

How the data were processed

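Poly(A) RNA-seq of 24 HK-2 libraries was used. Per the submitters' processing notes, Salmon, DESeq2 and GRCh38/hg38 were used, with versions and roles not given in the sources used here. The deposited values are estimated counts per Ensembl gene from the authors, not normalized, and 48.6% of the values above 0 were not whole. They were rounded. Symbols matched 58919 of 65180 IDs (the others held 4.36% of counts).

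Genes kept by filterByExpr were fitted with edgeR 4.0.16 (R 4.3.3, robust quasi-likelihood test, TMM), with 14 libraries for hypoxia and 18 for TGF-β1, 8 of them in both. P-values were adjusted by Benjamini-Hochberg over all genes of a fit, and genes below 0.05 were called. The comparisons of hypoxia, BAY and TGF-β1 with solvent in normoxia share those solvent libraries. No pair of replicates matched within sampling noise (chi-square per degree of freedom 5.46 to 48.1 over 39 pairs).

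All 10 members are named, and of each list up to 4 called genes per direction with the largest change and at least 1 CPM, except items that are not reported here. Members and lists were chosen with earlier results of these data known. Deviations of same-numbered BAY and solvent libraries of hypoxia had correlations of 0.111, 0.162 and 0.145. Differently numbered libraries were not compared, so these values do not show a pairing. The blocked HMOX1 value is given there as an alternative only. Alternatives were RLE scaling, library totals, no filter, DESeq2 1.42.0, all libraries in 1 fit, the replicate block, single libraries left out, and the subsets. The subset and library total alternatives were chosen after seeing the data.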

Additional observations from a re-analysis of the deposited data

Results flagged for a closer look

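Each value here is a difference between BAY effects, tested as an interaction with edgeR and adjusted over all genes of the fit.

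Between hypoxia and normoxia, the BAY effect on GCLM differed by -0.36 (edgeR adjusted p = 0.00443). GCLM was called lower with BAY in hypoxia and higher with BAY in normoxia, calls lost in 1 of 12 and 6 of 16 alternatives. For SRXN1 the difference was -0.24 (edgeR adjusted p = 0.0436), close to the threshold, and the call was lost in 15 of 22 alternatives. The 2 of 10 members called in this interaction stood beside 16.8% of all genes called.

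With and without TGF-β1, the BAY effect on NFE2L2 differed by -0.84 and on NFE2L3 by 0.74, so both effects were smaller in size with TGF-β1. The difference was -0.81 for GCLM, -0.73 for NQO1, -0.63 for OSGIN1 and -0.44 for SRXN1. The BAY libraries without TGF-β1 could not be placed in either subset of normoxic libraries. With subset 1 or subset 2 alone in the groups of 5, NQO1 gave -0.56 and -1.06, and the part of the subsets in this difference was not tested further.

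Each member was tested for a single outlying library within each group of 5 libraries, and 0 of these 30 sets of values were flagged. The test looks for a lone library and not for a split of a group into subsets. The absence of flags therefore does not show that the groups were uniform.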

How the results depend on the processing

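Of the 70 member results, 38 kept their direction and their side of the threshold under every alternative run. Of 1300 alternative values, 1178 kept both, 59 became called, 40 lost the call and 23 changed sign.

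Sign changes concerned values near 0 or HMOX1 and GCLC. With single libraries left out, OSGIN1 in hypoxia spanned -0.066 to 0.016, KEAP1 with BAY in hypoxia -0.070 to 0.0019, and TXNRD1 there -0.0043 to 0.14. The oxygen by BAY interaction of KEAP1 spanned -0.040 to 0.035 and that of GCLC -0.0047 to 0.041, and the TGF-β1 by BAY interaction of KEAP1 -0.043 to 0.00039. Against subset 2 alone, BAY in normoxia gave 0.0079 for KEAP1 and 0.083 for HMOX1. With subset 1 alone the oxygen by BAY interaction was 0.051 for KEAP1, 0.12 for HMOX1 and 0.018 for TXNRD1, the TGF-β1 by BAY interaction of KEAP1 was 0.0081 and GCLC with TGF-β1 was 0.085. KEAP1 in the oxygen by BAY interaction was 0.011 with RLE scaling, 0.013 with DESeq2 and 0.015 with all libraries in 1 fit. GCLC there was -0.073 with library totals and -0.0092 with the replicate block. The cause was not tested.

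Counts moved as follows. Members called in the oxygen by BAY interaction were 2, against 1 with RLE scaling or all libraries in 1 fit, 5 with library totals or subset 2, and 1 to 3 with single libraries left out. The share of all genes called was not set beside each of these counts. They are therefore not read as a result about the members. With TGF-β1 the members called were 8, against 10 in subset 1, 9 in subset 2 and 9 with the subset as a term. All genes called were 13422 there, against 13014, 13145 and 14383 in the same order. With BAY added to TGF-β1 the members called were 5, against 8 in subset 1, 8 in subset 2 and 9 with the subset as a term. The share of all genes called in those fits of BAY added to TGF-β1 is not given, so these counts too are not read as a result about the members. Genes called in the interactions were 5821 (oxygen) and 7100 (TGF-β1) with subset 1 alone, beside 3571 and 4487. Wider targets called with BAY in hypoxia were 13 to 19 with single libraries left out, beside 20. All genes called there were 6879 to 7520, beside 8087.

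With the replicate block, apart from HMOX1 with BAY in hypoxia, GCLM with BAY in normoxia (0.14, edgeR adjusted p = 0.0632) and the oxygen by BAY interaction of SRXN1 (-0.23, edgeR adjusted p = 0.0696) lost their call. The block gave calls for the oxygen by BAY interaction of NQO1 (-0.43), KEAP1 with BAY added to TGF-β1 (-0.07) and the TGF-β1 by BAY interactions of HMOX1 (-0.59) and TXNRD1 (-0.34). No other member call changed with the block. Other settings gave calls for KEAP1 with BAY added to TGF-β1 (RLE scaling, DESeq2, library totals and subset 2, -0.08 to -0.10), for the TGF-β1 by BAY interactions of HMOX1 and TXNRD1 (DESeq2, library totals and all libraries in 1 fit) and for the oxygen by BAY interactions of NQO1 (DESeq2 and library totals) and OSGIN1 (library totals, -0.30). Genes called with the block were 12182 in hypoxia, 8379 and 7864 with BAY in normoxia and hypoxia, 3038 for the oxygen interaction, 13911 with TGF-β1, 7231 with BAY added to it and 5922 for the TGF-β1 interaction. Same-numbered libraries had correlations of 0.254, 0.324, 0.0996, 0.157 and 0.211 with BAY added to TGF-β1. With BAY in hypoxia they were 0.111, 0.162 and 0.145. Values were -0.246 to 0.342 with TGF-β1, -0.0272 to 0.0991 with BAY in normoxia and -0.00832 to 0.0053 for hypoxia against normoxia. A limit of 0.1 set the first 2 of these comparisons apart by 1 pair only, so it does not show that they differ in pairing. Differently numbered libraries were not compared, so pairing stays undecided in every comparison.

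Groups of 3 libraries, 1 cell line, the uncertain BAY dose and the unnamed subsets limit these results. Every member had at least 339 estimated counts in each library.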
